A study of Mus musculus with 8 samples.

Results

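The transcripts that encode the interferon receptors and the Janus kinases (JAKs) bound to them were measured in mouse liver tumors shortly after an agonist of toll-like receptor 7 (TLR7) was given. The members are 9 genes, chosen by symbol from the 55536 genes of the count table, and each symbol matched 1 gene. They comprise the receptor chains Ifnar1, Ifnar2, Ifngr1, Ifngr2, Ifnlr1 and Il10rb and the kinases Jak1, Jak2 and Tyk2. RNA was sequenced from 8 tumors of male C3H mice, which had received cells of the hepatocellular carcinoma line HCA-1 under the liver capsule. For the 4 PFSUV-IMQ tumors the host mice received on day 17 a single intravenous dose of 4 mg kg-1 of imiquimod (IMQ), which activates TLR7, carried in small unilamellar vesicles made without phospholipid (PFSUV). For the 4 control tumors the hosts received saline, and all tumors were taken 3 h later. The labels number the control tumors 1, 3, 4 and 5 and the PFSUV-IMQ tumors 1 to 4, and give the age at implantation as 6 to 8 weeks. The study's methods give a lower range, but for the mice as purchased. Tumors with empty vesicles or with free IMQ were not analysed here, so effects of the vesicle and of the drug cannot be told apart, and all tumors come from a single cell line.

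Interferons act through pairs of receptor chains that carry no enzyme of their own. IFNAR1 and IFNAR2 bind type I interferons such as IFN-α and IFN-β, IFNGR1 and IFNGR2 bind IFN-γ, and IFNLR1 with the interleukin-10 receptor chain IL10RB binds type III interferons. Each chain holds a JAK at its inner side, with TYK2 on IFNAR1, JAK1 on IFNAR2 and IFNGR1 and JAK2 on IFNGR2, and ligand binding lets the kinases phosphorylate STAT transcription factors. STAT complexes that contain STAT2 and IRF9 then bind the interferon-stimulated response element (ISRE), whereas STAT dimers bind the gamma-activated site (GAS). Receptors and kinases are therefore present before the signal arrives, while many inhibitors of the pathway are themselves induced by it.

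Counts per tumor totalled 16883911 to 27687756, so that 3 counts, used here as the detection limit, correspond to 0.105 to 0.210 CPM, a limit that covers counting error only. Levels are given as normalized CPM, counts scaled by edgeR's TMM library sizes, with mean ± SD of 4 tumors. Differences are log2 fold changes of PFSUV-IMQ over saline with their standard error (SE) from the quasi-likelihood test of edgeR. The p values were adjusted by Benjamini and Hochberg over the 15998 tested genes, and genes with values under 0.05 were called. Intervals of 95% are per gene and unadjusted. The labelled tumor type was compared with marker genes. The epithelial keratins Krt8 and Krt18 had saline means of 686 and 886 CPM, while the oncofetal markers Afp and Gpc3 had 5.46 and 1.23 CPM. Hepatocyte markers varied widely, as the sum of 7 such genes ranged from 4346 to 33100 CPM in the saline tumors and from 6198 to 34180 CPM in the PFSUV-IMQ tumors, and neither this list nor any of the other 9 marker lists had a called gene. PFSUV-IMQ replicate 2 stood apart. It had the highest sums of its group for markers of hepatocytes, macrophages, T cells, B cells, NK cells, neutrophils and plasmacytoid dendritic cells. Of the macrophage markers, Csf1r and Cd68 were higher in PFSUV-IMQ replicate 1, whereas Adgre1, Mrc1 and Clec4f were highest in replicate 2. Eomes made up 18.4 CPM of the NK cell sum of 19.35 CPM in replicate 2. For the hepatocellular carcinoma markers replicate 2 had the lowest sum of all 8 tumors, at 1006 CPM. In the saline tumors this sum was 1272 to 2132 CPM. Krt8 and Krt18, at 444 and 550 CPM, made up most of it in replicate 2. Afp and Gpc3 were also lowest there, but Epcam, at 9.22 CPM, lay within the saline range of 5.43 to 11.4 CPM. The share of mitochondrial counts in replicate 2, 6.65%, was the highest of the 8.

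None of the 9 members was called higher or lower after PFSUV-IMQ, against a background of 2.68% of all tested genes called in either direction, 2.46% higher and 0.219% lower. With a log2 fold change beyond 1 also required, the background was 2.46%. All 9 passed the filter on low counts. At an unadjusted p under 0.05 there was 1 member, Jak2, against 13.0% of all tested genes, and the Wald test of DESeq2 also called 0 members, against 4.63% of the genes it tested, with 1 member at an unadjusted p under 0.05, against 12.8%. The median log2 fold change of the members was -0.002 and that of all tested genes -0.033, with 4 members above 0 and 5 below. Fold changes of the members ranged from -0.46 for Ifnlr1 to 0.93 for Jak2 on the log2 scale, and the signs of Ifnar2, Ifngr2, Jak1 and Tyk2 changed under another scaling or filter. In bulk tumor RNA, fewer cells of a type and less RNA per cell cannot be told apart.

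**Figure D1:**
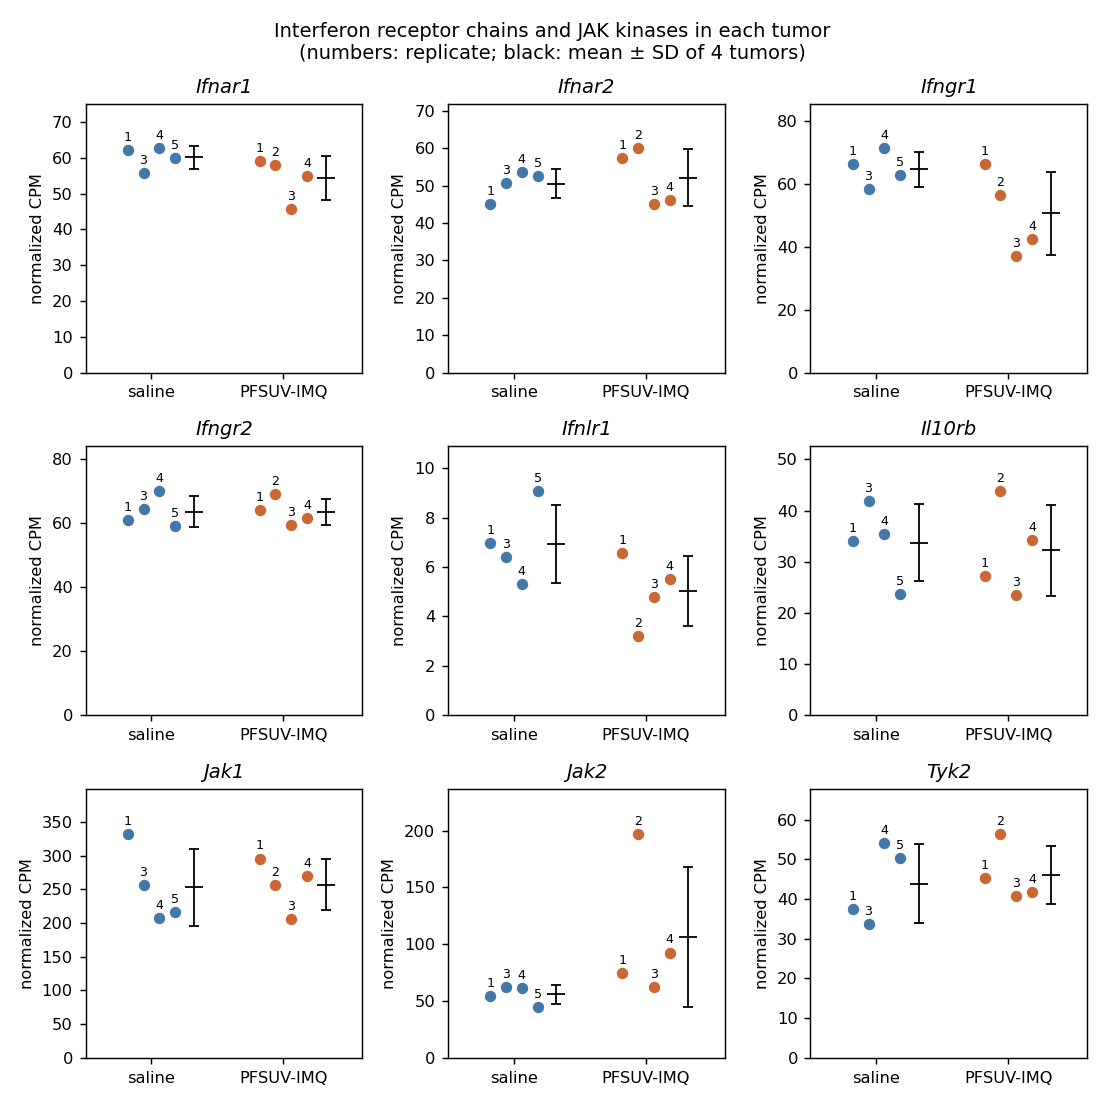
Normalized CPM (vertical axes, each from 0) of the 9 genes in the 4 saline and the 4 PFSUV-IMQ tumors, with replicate numbers beside the points and mean ± SD in black. The groups overlap in 8 of the panels, and in Jak2 the value of 197 CPM in PFSUV-IMQ replicate 2 lies far above the others.

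Neither chain of the type I receptor was called, and both had log2 fold changes near 0. Ifnar1 (ENSMUSG00000022967, chromosome 16, 91485238 to 91507441 of GRCm38, plus strand) encodes the chain that holds TYK2. It was measured at 62.1, 55.7, 62.6 and 60.1 CPM in saline replicates 1, 3, 4 and 5 and at 59.2, 58.0, 45.7 and 54.8 CPM in PFSUV-IMQ replicates 1 to 4. PFSUV-IMQ replicates 3 and 4 lay below every saline tumor, and replicates 1 and 2 lay within the saline range. Ifnar1 had a log2 fold change of -0.14 (SE 0.14, edgeR adjusted p = 0.763), with an interval from -0.46 to 0.17, that is between 0.729 and 1.12-fold. Ifnar2 (ENSMUSG00000022971, chromosome 16, 91372783 to 91405589, plus strand) encodes the chain that holds JAK1 and binds type I interferon most tightly. Its values were 45.0, 50.7, 53.7 and 52.6 CPM in the saline tumors and 57.3, 59.9, 45.2 and 46.1 CPM in the PFSUV-IMQ tumors. PFSUV-IMQ replicates 1 and 2 lay above the saline range, and replicates 3 and 4 at its lower end. The difference on the log2 scale was 0.046 (SE 0.15, edgeR adjusted p = 0.948), with an interval from -0.29 to 0.39. Of the exon bases of Ifnar2, 9.46% overlap exons of Gm21970, a gene model on the same strand that spans parts of Ifnar2 and Il10rb and had 0 counts in every tumor.

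The promoter of Ifnar1 is shown because it was 1 of 2 among the members with a GAS core. Promoters are RefSeq windows of GRCm38.p6 with 250 bases before and 50 bases after a gene's start, and they were found for 8 of the 9 members, all but Il10rb. The GAS core was searched as TTCNNNGAA, which reads the same on both strands, and the ISRE core as GAAA, any 2 bases and GAAA again, or on the other strand TTTC, any 2 bases and TTTC. Overlapping matches were counted. Of 32851 promoters, 8.30% held the GAS core and 3.44% the ISRE core. Among the 8 member promoters, 2 held the GAS core, as TTCACGGAA at base 246 of the window in Ifnar1 and TTCCTGGAA at base 37 in Ifnar2, and 0 held the ISRE core. In the sequence of chr16:91484965-91485264, plus strand, capitals mark the GAS core.
Ifnar1 promoter: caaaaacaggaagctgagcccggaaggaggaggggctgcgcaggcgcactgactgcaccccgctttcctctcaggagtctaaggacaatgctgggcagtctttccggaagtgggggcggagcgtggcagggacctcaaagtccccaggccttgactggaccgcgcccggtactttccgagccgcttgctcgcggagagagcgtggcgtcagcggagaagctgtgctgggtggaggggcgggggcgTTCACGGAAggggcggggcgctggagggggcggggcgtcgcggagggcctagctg

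Neither chain of the type II receptor was called, and Ifngr2 had the lowest dispersion between tumors of all 9 members. Ifngr1 (ENSMUSG00000020009, chromosome 10, 19591949 to 19610229, plus strand) encodes the ligand-binding chain that holds JAK1. It was measured at 66.4, 58.2, 71.1 and 62.6 CPM in the saline tumors and at 66.3, 56.3, 37.0 and 42.5 CPM in the PFSUV-IMQ tumors. PFSUV-IMQ replicates 3 and 4 lay well below every saline tumor, replicate 2 lay just below them, and replicate 1 lay within their range. On the log2 scale the fold change was -0.35 (SE 0.20, edgeR adjusted p = 0.529), with an interval from -0.80 to 0.091, that is between 0.575 and 1.06-fold. Without PFSUV-IMQ replicate 3 it was -0.23. The same replicates 3 and 4 had the lowest sums of 5 macrophage markers, at 198 and 246 CPM, against 380 and 428 CPM in PFSUV-IMQ replicates 1 and 2 and 356 to 587 CPM in the saline tumors. Of these 5 markers, 0 were called and all had a log2 fold change below 0, with a median of -0.42. The sums of 5 endothelial markers were also lowest in these replicates, at 75.6 and 81.1 CPM, against 115 and 113 CPM in PFSUV-IMQ replicates 1 and 2 and 97.4 to 161 CPM in the saline tumors, with 0 called, all 5 below 0 and a median of -0.63. Within the PFSUV-IMQ group these replicates also had the lowest sums of T cell, B cell, NK cell, neutrophil and fibroblast markers. This did not hold for the hepatocyte, hepatocellular carcinoma and plasmacytoid dendritic cell lists. Not every single marker followed the sums. Mrc1 and Clec4f were lower in PFSUV-IMQ replicate 1, at 82.8 and 13.6 CPM, than in replicate 4, at 84.7 and 15.4 CPM. The endothelial marker Tek was highest of its group in replicate 4, at 3.64 CPM. Over all tested genes, 2.68% were called. The part of any cell type in the Ifngr1 values was not tested.

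Ifngr2 (ENSMUSG00000022965, chromosome 16, 91547072 to 91565623, plus strand) encodes the chain that holds JAK2 and completes the receptor after IFN-γ has bound. Its values of 61.0, 64.6, 70.1 and 59.1 CPM in the saline tumors and 64.2, 69.1, 59.6 and 61.6 CPM in the PFSUV-IMQ tumors covered nearly the same range. Between its lowest and highest tumor Ifngr2 differed 1.19-fold, and 99.7% of tested genes had a higher estimated dispersion between tumors. Its log2 fold change was -0.002 (SE 0.13, edgeR adjusted p = 0.997), with an interval from -0.30 to 0.29, that is between 0.815 and 1.23-fold.

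The type III receptor had the least abundant member. Ifnlr1 (ENSMUSG00000062157, chromosome 4, 135686287 to 135708181, plus strand) encodes the chain specific to type III interferons, which act mainly on epithelial cells. It was measured at 6.96, 6.40, 5.33 and 9.07 CPM in the saline tumors and at 6.57, 3.21, 4.80 and 5.51 CPM in the PFSUV-IMQ tumors. The highest value was in saline replicate 5 and the lowest in PFSUV-IMQ replicate 2. PFSUV-IMQ replicate 3 also lay below every saline tumor, and replicates 1 and 4 lay within the saline range. The log2 fold change was -0.46 (SE 0.28, edgeR adjusted p = 0.567), and the interval from -1.08 to 0.16 is the widest on the negative side, so that a decrease to 0.472-fold could not be told from no difference with these tumors. Without saline replicate 5 the log2 fold change was -0.31. Il10rb (ENSMUSG00000022969, chromosome 16, 91406164 to 91425834, plus strand) encodes the chain shared by the receptors for type III interferons, interleukin-10 and interleukin-22. Its values were 34.1, 41.8, 35.4 and 23.7 CPM in the saline tumors and 27.3, 43.8, 23.5 and 34.3 CPM in the PFSUV-IMQ tumors. The groups overlapped throughout, and the log2 fold change was -0.068 (SE 0.24, edgeR adjusted p = 0.952), with an interval from -0.61 to 0.47. Exons of Gm21970 overlap 14.9% of the Il10rb exon bases, and 19.5% of the 50-base words of its longest transcript also occur in other genes, so some of its reads could not be assigned to it alone.

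Among the kinases, Jak2 had the largest difference of all members, and Jak1 and Tyk2 had log2 fold changes near 0. Jak2 (ENSMUSG00000024789, chromosome 19, 29251828 to 29313080, plus strand) encodes the kinase of IFNGR2 and of several hormone and cytokine receptors. It was measured at 54.7, 62.1, 61.8 and 44.8 CPM in the saline tumors and at 74.7, 197, 62.3 and 92.7 CPM in the PFSUV-IMQ tumors. No PFSUV-IMQ tumor overlapped the saline range, although replicate 3 was only just above it. The separation depended on the scaling, since with the counts divided by the authors' size factors the lowest PFSUV-IMQ tumor, at 1290, lay below the highest saline tumor, at 1298. Jak2 was the only member whose groups did not overlap, against 9.28% of all tested genes. The means were 55.9 ± 8.12 CPM in the saline tumors and 107 ± 61.6 CPM in the PFSUV-IMQ tumors (SD, n = 4 each), and the log2 fold change was 0.93 (SE 0.34, edgeR adjusted p = 0.262) with an interval from 0.17 to 1.70 that is not adjusted for the number of genes. Without PFSUV-IMQ replicate 2 it was 0.44 (edgeR adjusted p = 0.351), and in the 7 fits without another tumor it ranged from 0.84 to 1.13. In replicate 2 the neutrophil marker sum was 132 CPM and the B cell marker sum 20.8 CPM, against 28.7 to 44.1 CPM and 2.45 to 4.30 CPM in the other PFSUV-IMQ tumors and 15.5 to 58.2 CPM and 1.94 to 8.08 CPM in the saline tumors. None of the 4 neutrophil and 4 B cell markers tested was called, and their part in the Jak2 value was not tested.

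The Jak2 promoter is shown because it belongs to the member with the largest difference. It lies at chr19:29251553-29251852 on the plus strand, has a GC content of 81.0% and holds neither the GAS core nor the ISRE core, so it has no capitals. No match says only that these letters are absent from this window.
Jak2 promoter: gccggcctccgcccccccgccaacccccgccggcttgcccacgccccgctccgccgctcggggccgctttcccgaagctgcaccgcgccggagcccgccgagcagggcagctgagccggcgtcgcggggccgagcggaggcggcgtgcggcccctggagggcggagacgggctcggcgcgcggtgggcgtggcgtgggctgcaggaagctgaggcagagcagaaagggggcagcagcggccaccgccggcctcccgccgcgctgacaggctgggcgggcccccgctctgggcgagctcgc

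Jak1 (ENSMUSG00000028530, chromosome 4, 101152367 to 101265282, minus strand) encodes the kinase shared by all 3 types of interferon receptor. Its values of 332, 257, 207 and 216 CPM in the saline tumors and 296, 256, 206 and 269 CPM in the PFSUV-IMQ tumors overlapped throughout, with saline replicate 1 the highest. Its difference on the log2 scale was 0.022 (SE 0.20, edgeR adjusted p = 0.981), with an interval from -0.43 to 0.48. Tyk2 (ENSMUSG00000032175, chromosome 9, 21104068 to 21131243, minus strand) encodes the kinase of IFNAR1. It had 37.5, 33.6, 54.0 and 50.4 CPM in the saline tumors and 45.3, 56.5, 40.7 and 41.7 CPM in the PFSUV-IMQ tumors, so that saline replicates 1 and 3 were the lowest tumors and PFSUV-IMQ replicate 2 the highest. For Tyk2 the log2 fold change was 0.069 (SE 0.20, edgeR adjusted p = 0.939), with an interval from -0.37 to 0.51. Exons of 1700084C06Rik on the opposite strand overlap 8.07% of the Tyk2 exon bases, and reads there can be told apart only if strand was used in counting, which is not given in the sources used here.

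Levels of different genes were compared as CPM per kb of merged exon length. In the saline tumors Jak1 was highest at 35.0 ± 7.93 CPM per kb, above 91.7% of tested genes, followed by Ifngr1 at 22.7 ± 1.93, Ifngr2 at 16.9 ± 1.29, Ifnar2 at 15.2 ± 1.17, Jak2 at 11.1 ± 1.61, Ifnar1 at 10.1 ± 0.527, Il10rb at 8.87 ± 1.97 and Tyk2 at 6.39 ± 1.44 CPM per kb (SD, n = 4 each). Ifnlr1 was lowest at 1.66 ± 0.376 CPM per kb, above 29.4% of tested genes. The saline ranges of neighbors in this order overlapped for Ifngr2 and Ifnar2, and for each step from Jak2 through Ifnar1 and Il10rb to Tyk2, while Jak1, Ifngr1 and Ifnlr1 were separate from their neighbors and Ifnar2 was separate from Jak2. After PFSUV-IMQ, Jak2 spanned 12.4 to 39.2 CPM per kb, so that in replicate 2 it came within the range of Jak1, at 28.5 to 40.9 CPM per kb.

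**Figure D2:**
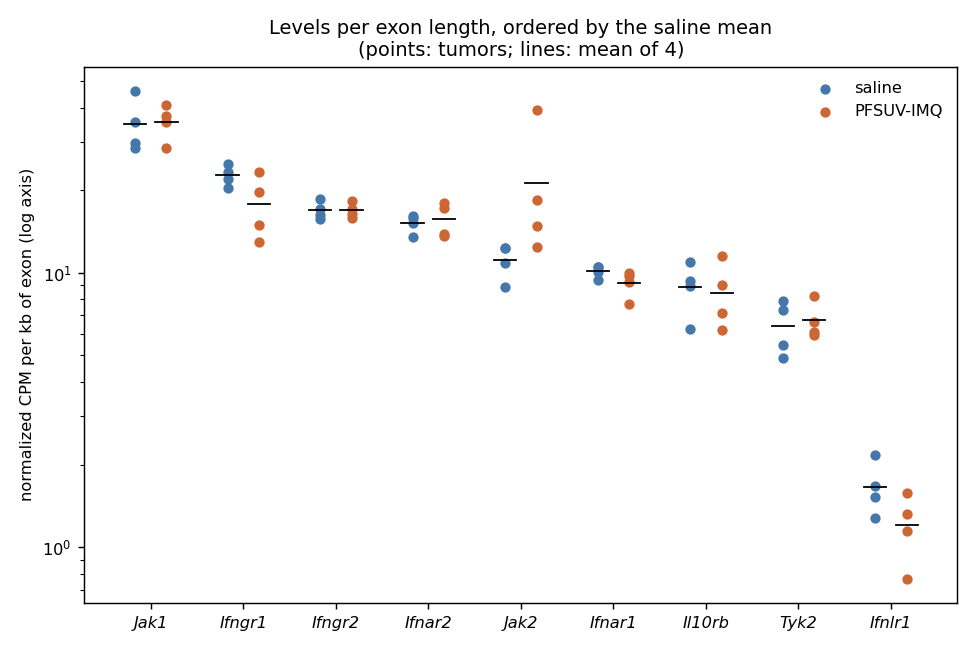
Normalized CPM per kb of exon (log axis) of each gene in the 4 saline and the 4 PFSUV-IMQ tumors, ordered by the saline mean, with lines at the means. Jak1 is highest and Ifnlr1 lowest in both groups, and the points of most genes overlap between the groups.

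The balance of chains that work together was examined as the log2 ratio of 2 genes within a tumor, which does not depend on library scaling. In the saline tumors the Ifnar1/Ifnar2 ratio per kb had a geometric mean of 0.668, the Ifngr1/Ifngr2 ratio 1.34 and the Ifnlr1/Il10rb ratio 0.188. Of 6 pairs compared, 0 passed an adjusted p of 0.05 in the two-sided exact permutation test. With 4 tumors against 4, this test cannot give a p below 0.0286 before adjustment over the 6 pairs. A pair that alone reached this p could not pass after adjustment. The smallest p was that of Jak2/Jak1, with log2 ratios of -2.08, -1.52, -1.22 and -1.74 after saline and -1.46, 0.15, -1.20 and -1.01 after PFSUV-IMQ. PFSUV-IMQ replicate 2 was the only tumor in which Jak2 exceeded Jak1 per kb. The mean log2 ratio was -1.64 ± 0.36 after saline and -0.88 ± 0.71 after PFSUV-IMQ, a difference of 0.76 (SD, n = 4 each, exact permutation p = 0.0571, adjusted 0.171), which was 0.42 without replicate 2. For Ifngr1/Ifngr2 the mean log2 ratio was 0.42 ± 0.12 after saline and 0.036 ± 0.32 after PFSUV-IMQ, a difference of -0.39 (SD, n = 4 each, exact permutation p = 0.0857, adjusted 0.171). PFSUV-IMQ replicates 2, 3 and 4 lay below every saline tumor in this ratio and replicate 1, at 0.45, lay within their range of 0.25 to 0.53.

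Il10rb is also the partner of Il10ra, the ligand-binding chain of the interleukin-10 receptor, found mainly on leukocytes. The log2 ratio Il10ra/Il10rb was 0.31 ± 0.30 after saline and 1.17 ± 0.52 after PFSUV-IMQ, a difference of 0.86 (SD, n = 4 each, exact permutation p = 0.0857, adjusted 0.171). Only PFSUV-IMQ replicate 4, at 0.51, lay within the saline range. For Ifnar1/Ifnar2 the difference was -0.19 (exact permutation p = 0.114 with 4 tumors against 4, adjusted 0.171), for Ifnlr1/Il10rb -0.41 (exact permutation p = 0.514, adjusted 0.617) and for Tyk2/Jak1 0.049 (exact permutation p = 0.914, also after adjustment). The Ifnlr1/Il10rb difference was -0.047 without PFSUV-IMQ replicate 2, -0.11 without saline replicate 5 and -0.62 without PFSUV-IMQ replicate 1.

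**Figure D3:**
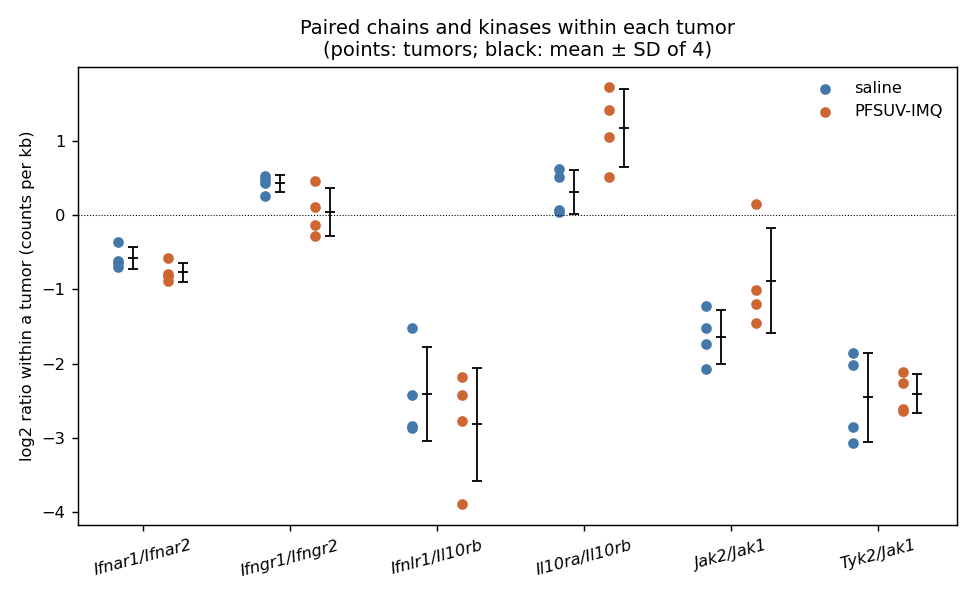
Log2 ratio of counts per kb (vertical axis) of 6 gene pairs within each tumor, with the group mean ± SD (n = 4) in black. The groups overlap in all 6 pairs, and PFSUV-IMQ replicate 2, at 0.15, is the only tumor above 0 for Jak2/Jak1.

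Other genes of the pathway were described from lists, beginning with the ligands. Of 18 type I interferon genes, 0 passed the filter on low counts and 8 had 0 counts in every tumor, which allows a level of up to 0.105 to 0.210 CPM per tumor. Ifnb1, which encodes IFN-β, had 2, 4, 0 and 2 counts after saline and 4, 7, 3 and 3 counts after PFSUV-IMQ, at or near the limit of 3 counts. The type III genes Ifnl2 and Ifnl3 had 0 counts in all saline tumors, and after PFSUV-IMQ they had 3, 6, 1 and 0 counts and 0, 2, 0 and 3 counts. Reads of such near-identical genes can also be lost to copies. Ifng, which encodes IFN-γ, was tested at 2.25 ± 0.996 CPM in the saline tumors and 3.50 ± 1.45 CPM in the PFSUV-IMQ tumors (SD, n = 4 each), with a log2 fold change of 0.62 (SE 0.42, edgeR adjusted p = 0.629).

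Downstream of the receptors, 2 of 7 genes for STATs and Irf9 were called, both higher, against 2.68% of all tested genes. The median log2 fold change of the 7 was -0.004, and 3 had an unadjusted p under 0.05, against 13.0% of all tested genes. The Wald test of DESeq2 called 3 of the 7, against 4.63% of the genes it tested. Stat2 had 97.2, 119, 101 and 91.0 CPM in the saline tumors and 430, 626, 506 and 504 CPM in the PFSUV-IMQ tumors, with no overlap between the groups. Its log2 fold change was 2.34 (SE 0.19, edgeR adjusted p = 4.99e-04). Irf9, whose product joins STAT2 at the ISRE, had 53.2 ± 7.93 CPM in the saline tumors and 127 ± 26.8 CPM in the PFSUV-IMQ tumors (SD, n = 4 each), and its log2 fold change was 1.26 (SE 0.19, edgeR adjusted p = 0.00870). Stat3, named after its values were seen, was not called by edgeR's quasi-likelihood test, with a log2 fold change of 0.84 (SE 0.19, edgeR adjusted p = 0.0578). Its groups of 167 to 208 CPM and 287 to 445 CPM nevertheless did not overlap. The intervals of the called genes Stat2 and Irf9 ran from 1.92 to 2.76 and from 0.83 to 1.69. That of Jak2 ran from 0.17 to 1.70, and those of the 8 other members ended at 0.091 to 0.51. Among the genes of the list that edgeR did not call, the interval of Stat3 ran from 0.40 to 1.27. Those of Stat4, Stat5a, Stat5b and Stat6 ended at 0.31 to 0.515. These differences between genes were not tested.

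Of 14 genes listed as negative regulators of JAK-STAT signaling or their partners, 3 were called, all higher, and 5 had an unadjusted p under 0.05. The shares over all tested genes were 2.68% and 13.0%. The median log2 fold change was 0.30, against -0.033 for all tested genes. Usp18, whose product binds IFNAR2 and blocks its use of JAK1, had 17.6 ± 3.58 CPM in the saline tumors and 496 ± 276 CPM in the PFSUV-IMQ tumors (SD, n = 4 each), and its log2 fold change was 4.82 (SE 0.41, edgeR adjusted p = 5.94e-04). Isg15, whose product stabilizes USP18 in human cells, had a log2 fold change of 5.03 (SE 0.41, edgeR adjusted p = 5.52e-04). Socs1, whose product binds and inhibits the JAKs, had 5.76, 10.7, 6.96 and 5.65 CPM in the saline tumors and 29.1, 102.5, 31.9 and 31.0 CPM in the PFSUV-IMQ tumors. Its log2 fold change was 2.74 (SE 0.46, edgeR adjusted p = 0.0137), and the call was lost without saline replicate 1, at an adjusted p of 0.0627. Socs1 was highest in PFSUV-IMQ replicate 2, the tumor in which Jak2 was also highest. Ifnar2, the receptor partner of USP18, had values of 45.2 to 59.9 CPM in the tumors in which Usp18 had 260 to 895 CPM.

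**Figure D4:**
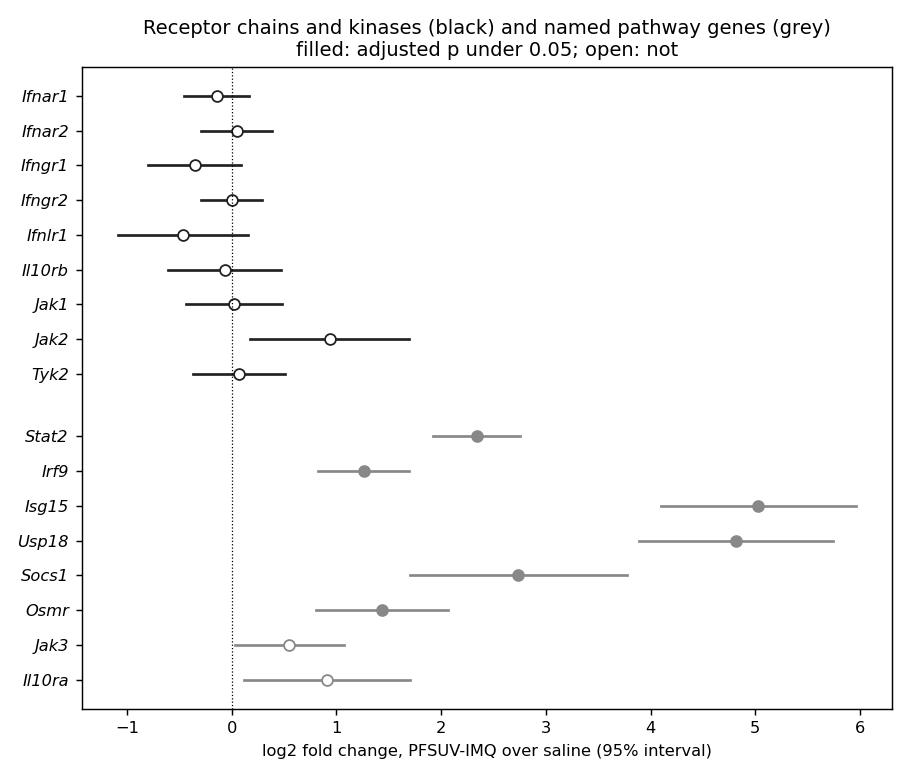
Log2 fold change of PFSUV-IMQ over saline (horizontal axis) with its 95% interval for the 9 receptor chains and kinases in black and the named pathway genes in grey. Filled points had an adjusted p under 0.05, and all 9 points of the receptor chains and kinases are open.

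In a list of 24 genes for the fourth JAK and for other receptor chains that use these kinases, 21 were tested, 1 was called and 8 had an unadjusted p under 0.05. Over all tested genes the shares were 2.68% called and 13.0% at an unadjusted p under 0.05. Osmr, the oncostatin M receptor chain, rose from 31.0 ± 4.45 to 83.8 ± 36.4 CPM (SD, n = 4 each), which is 1.44 on the log2 scale (SE 0.28, edgeR adjusted p = 0.0286). The Osmr call was lost in each fit without 1 of the 4 saline tumors and in that without PFSUV-IMQ replicate 4, at edgeR adjusted p values of 0.0639 to 0.0958. The list, which shares Csf3r with the neutrophil markers, had 17 genes above 0 and 4 below, against 7361 of all 15998 tested genes above 0. The median of the list was 0.51, against -0.033 for all tested genes. Each of the 8 genes with an unadjusted p under 0.05 was highest in PFSUV-IMQ replicate 2. Osmr had 136 CPM there, against 56.1 to 81.7 CPM in the other PFSUV-IMQ tumors, and its log2 fold change without replicate 2 was 1.085. Jak3, the kinase of the common gamma chain of interleukin receptors, had 45.4, 41.8, 41.2 and 69.9 CPM in the saline tumors and 77.8, 95.2, 57.6 and 60.1 CPM in the PFSUV-IMQ tumors, with saline replicate 5 inside the PFSUV-IMQ range. Its log2 fold change was 0.55 (SE 0.23, edgeR adjusted p = 0.350), and that of Il10ra was 0.91 (SE 0.35, edgeR adjusted p = 0.298). Without PFSUV-IMQ replicate 2 that of Il10ra was 0.43. Of 7 genes for the turnover of interferon receptors, among them Btrc, which marks IFNAR1 for degradation, 0 were called by edgeR's quasi-likelihood test, with 1 at an unadjusted p under 0.05 and a median log2 fold change of -0.14.

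Promoters of the called pathway genes are shown beside those of the receptors and kinases for comparison of their letters. The table of promoters held 5 of the 6 called pathway genes, and 3 of these 5, Stat2, Isg15 and Socs1, held the ISRE core, whereas 0 held the GAS core. The shares over all 32851 promoters were 3.44% and 8.30%. Irf9 had 2 windows, both without a match. Pathway genes that were not called were not searched. Isg15 held 3 overlapping matches, starting at bases 173, 179 and 185 of the window, and Socs1 2 overlapping matches, at bases 168 and 174. A match is a description of the letters, not a shown binding site. Capitals mark the ISRE core in the windows of Isg15 (chr4:156200769-156201068, minus strand) and Stat2 (chr10:128270248-128270547, plus strand).
Isg15 promoter: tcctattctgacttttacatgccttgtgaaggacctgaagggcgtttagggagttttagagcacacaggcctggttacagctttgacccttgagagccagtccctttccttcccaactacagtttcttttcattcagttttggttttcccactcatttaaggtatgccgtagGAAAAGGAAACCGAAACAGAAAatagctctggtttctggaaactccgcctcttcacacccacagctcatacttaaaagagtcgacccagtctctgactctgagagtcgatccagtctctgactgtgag
Stat2 promoter: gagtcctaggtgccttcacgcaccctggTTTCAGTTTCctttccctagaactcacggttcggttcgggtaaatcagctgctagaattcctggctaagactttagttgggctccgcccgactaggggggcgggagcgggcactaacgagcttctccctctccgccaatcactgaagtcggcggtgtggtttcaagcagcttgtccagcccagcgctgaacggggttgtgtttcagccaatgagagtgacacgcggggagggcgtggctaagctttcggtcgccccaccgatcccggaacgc

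The genes Ifnar2, Il10rb, Ifnar1 and Ifngr2 lie in this order on the plus strand of chromosome 16 within 192.8 kb, from 91372783 to 91565623. Within 100 kb of this span GRCm38 has 19 annotated genes, the 4 receptor genes included, of which 9 passed the filter on low counts. None of the 9 was called by edgeR's quasi-likelihood test, and 1, Dnajc28, had an unadjusted p under 0.05. The shares over all tested genes were 2.68% and 13.0%. Among the neighbors, Tmem50b, Gart and Son had log2 fold changes of 0.12, -0.34 and 0.26, and A930006K02Rik was at -0.27. Dnajc28, which encodes a putative chaperone cofactor, was the neighbor farthest from 0, at 3.36, 2.88, 4.47 and 1.47 CPM in the saline tumors and 1.16, 1.61, 0.613 and 1.38 CPM in the PFSUV-IMQ tumors. PFSUV-IMQ replicate 2 lay within the saline range and the other PFSUV-IMQ tumors below it. The log2 fold change of Dnajc28 was -1.36 (SE 0.41, edgeR adjusted p = 0.158), and the Wald test of DESeq2 gave an adjusted p of 0.0416.

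**Figure D5:**
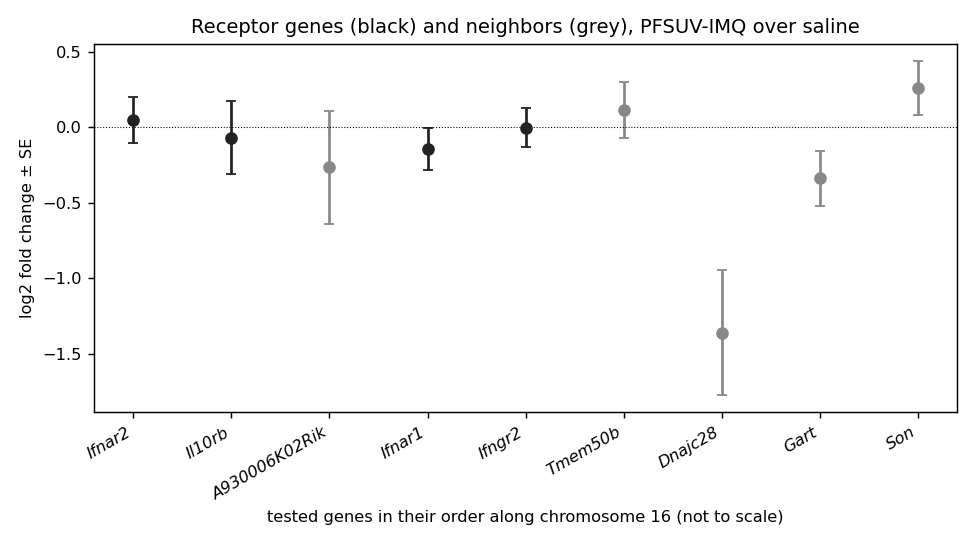
Log2 fold change ± standard error (vertical axis) of the 9 tested genes in and around the receptor cluster of chromosome 16, in their order along the chromosome and not to scale, with receptor genes in black. The 4 receptor genes lie between -0.14 and 0.046, and Dnajc28 lies lowest at -1.36.

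The genes whose pattern over the tumors was most like that of a member were found by Pearson's r of log2 CPM after each group's mean had been subtracted, over 8 tumors and the other 15997 tested genes. This is a description without a test, and a single tumor that deviates far, such as PFSUV-IMQ replicate 2 for Jak2, can set r. For Jak2 they were Olr1, a scavenger receptor for oxidized lipoprotein (r = 0.993), and Ccdc184 (r = 0.988). For Ifngr1 they were Csf2rb2, a receptor chain of the interleukin-3 family (r = 0.983), and Kcnab2 (r = 0.979). For Ifnar1 the nearest gene was Med12 (r = 0.978), for Ifnar2 Gm13546 (r = 0.986), for Ifngr2 Arhgef6 (r = 0.998), for Ifnlr1 Ddx11 (r = 0.990), for Il10rb Gm6377 (r = 0.996), for Jak1 Atf6 (r = 0.990) and for Tyk2 Phkg2 (r = 0.982).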

How the data were processed

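Read counts by gene were deposited for the 8 tumors without normalization, and all tests started from them. The authors also deposited a signal table in which the counts are divided by 1 size factor per tumor, which gave gene symbols and another scaling. The study's methods name TopHat and HTSeq, whereas the submitters' processing notes name Trimmomatic 0.38, HISAT2 2.1.0 and featureCounts 2.0.0, and the deposited tables do not settle which was used. The genome build and the strand setting are not given in the sources used here. All 55536 gene identifiers match GENCODE M21 of GRCm38, the source of coordinates and exon lengths.

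The software was edgeR 4.0.16 and DESeq2 1.42.0 under R 4.3.3, with Python 3.11.15 for tables. The edgeR fit used TMM scaling, the default filter on low counts and the quasi-likelihood test over both groups. The study's methods name edgeR and a threshold without a fold limit, which was kept. Ratios of 2 genes had a prior count of 0.5. Members, gene lists and tests were chosen with earlier results of these data known. The rule for named genes took all members, the called genes of each pathway list (at most 6), Jak3, Il10ra, the tested neighbors on chromosome 16 and the 2 genes most like each member. Alternatives were DESeq2's size factors, upper-quartile factors, other filters on low counts, the Wald test of DESeq2, a fold limit, a replicate block and each tumor left out. A gene of the pathway lists is not reported here and was left out of the list counts. No batch is given. Nothing in the labels pairs tumors with the same number. Correlations of log2 CPM between tumors of a group were 0.918 to 0.988 and no pair of tumors had counts within sampling noise of each other. The labels do not state whether each tumor came from a separate mouse, so p values measure the spread between these tumors.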

Additional observations from a re-analysis of the deposited data

Results flagged for a closer look

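In 3 of 56 groups of 4 values, the highest or lowest tumor lay far from the others by Dixon's criterion, which chance meets in about 1 of 20 groups. None of the 3 concerns a receptor chain or kinase of the interferon receptors. Socs1 was 102.5 CPM in PFSUV-IMQ replicate 2, above the others of its group. Jak3 was 69.9 CPM and Son 481 CPM in saline replicate 5, each above the other saline tumors.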

How the results depend on the processing

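No alternative called a member, and the smallest adjusted p of a member under any of them was 0.164, for Jak2 with the Wald test of DESeq2. Jak2 stayed above 0 in all 14 other fits, with log2 fold changes from 0.35 with the replicate block (adjusted p = 0.273) to 1.13. In the block fit PFSUV-IMQ replicate 2 and saline replicate 5 had no tumor of the same number. The differences in that fit therefore came from the other tumors only. Members close to 0 changed sign. With upper-quartile factors Ifnar2, Jak1 and Tyk2 were at -0.028, -0.047 and -0.007, with the replicate block Ifnar2 and Jak1 were at -0.013 and -0.036 and the neighbor Tmem50b at -0.038, while Il10rb was at -0.40, Ifnlr1 at -0.15 and Il10ra at 0.35, and with DESeq2 size factors or at least 10 counts in every tumor Ifngr2 was at 0.009. With each tumor left out in turn, log2 fold changes ranged from -0.044 to 0.11 for Ifnar2, -0.061 to 0.045 for Ifngr2, -0.27 to 0.059 for Il10rb, -0.066 to 0.18 for Jak1 and -0.059 to 0.18 for Tyk2, and the Tyk2/Jak1 difference from -0.16 to 0.25. The other receptor chains that use JAK kinases had 2 called genes without a filter on low counts, 4 with DESeq2 and 0 to 1 with a tumor left out. The shares called over all tested genes were 2.68% in the main fit and 4.63% with DESeq2. Over all 15998 tested genes, 394 were called higher and 35 lower, and with the replicate block 519 and 302. DESeq2 called 731 and 180 of 19673 tested genes, and the fit without the filter 510 and 64 of 34703. With a tumor left out, 198 to 398 and 8 to 41 of 16245 to 16457 tested genes were called. The neighbor Dnajc28 was called with DESeq2 (adjusted p = 0.0416) and with the replicate block (edgeR adjusted p = 0.0374). Same-numbered tumors did not deviate together (correlations 0.31, -0.26 and -0.38). The cause of these changes was not tested. With 4 tumors a group, differences of the size of the intervals given for each member could not be shown.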
